A study of Mus musculus with 12 samples.

Results

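Fatty acid oxidation and its regulation by peroxisome proliferator-activated receptors (PPARs) were followed through 35 genes, named by symbol, of the 47937 genes counted in bone marrow-derived macrophages. The 35 genes encode the enzymes and carriers that activate fatty acids, pass them into mitochondria and peroxisomes and shorten them there, and the receptors Ppara, Ppard and Pparg with the coactivator Ppargc1b and the kinase Pdk4. All 35 were found in the count table, and 33 had enough reads to be tested. RNA was sequenced from macrophages that had been grown with CSF-1 from C57BL/6 bone marrow, and each of the 4 groups holds 3 libraries. M0 were resting cells, and IFNγ + LPS were cells stimulated for 18 h with IFNγ at 50 ng/ml and LPS at 20 ng/ml. Each of these was also grown in the presence of T863 at 50 μM, an inhibitor of the triglyceride-forming enzyme DGAT1 (the groups with DGAT1i). The labels give 18 h for both groups with DGAT1i and no time for M0. No gene was deleted in any group, so the inhibitor has no check in a targeted transcript. For 2 of the 3 resting samples with inhibitor the free text carries a different compound number, but the source label names T863, and they are treated as such here.

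The reads on genes numbered 4996014 to 6621671 in a library, and libraries of a group correlated with r of 0.988 to 0.992 on the log2 scale. Levels below are CPM, reads of a gene relative to the TMM-scaled total of its library, and 1 CPM is worth 4.28 to 7.58 reads. All 8 macrophage markers were counted in every group. Their summed level was 13131 to 14358 CPM in M0, 16054 to 18075 CPM in M0 with DGAT1i, 8323 to 8980 CPM in IFNγ + LPS and 7923 to 8891 CPM in IFNγ + LPS with DGAT1i, and its part in the results was not tested. Of the genes known to respond to IFNγ or LPS that were listed as a check, 10 of 10 rose with stimulation in the absence and in the presence of DGAT1i. Of all genes tested, 37.1% and 35.3% rose in these comparisons. With DGAT1i in IFNγ + LPS 1 of these 10 genes rose and 6 fell, where 13.5% of all genes tested rose and 16.3% fell. Their median log2 fold change was -0.43, against -0.01 for all genes tested. Of 6 adipocyte markers, Adipoq, Plin1, Cfd and Cidea had 0 reads in all libraries and Lep had reads in M0 with DGAT1i alone. The sixth, the lipase gene Lipe, carried nearly all of the summed level, which was 13.9 to 16.6 CPM in M0, 13.8 to 15.6 CPM in M0 with DGAT1i, 48.8 to 52.6 CPM in IFNγ + LPS and 28.0 to 41.3 CPM in IFNγ + LPS with DGAT1i. Lipe rose with IFNγ + LPS and fell with DGAT1i in IFNγ + LPS (edgeR adjusted p = 2.39e-20 and 0.000135), and its part in the results was not tested. The summed level of 4 dendritic cell markers was 0.133 to 0.835 CPM in M0, 0.264 to 0.568 CPM in M0 with DGAT1i, 5.62 to 7.16 CPM in IFNγ + LPS and 1.04 to 1.40 CPM in IFNγ + LPS with DGAT1i. That of 4 B cell markers was 2.03 to 2.66, 0.531 to 1.85, 0.211 to 0.562 and 0.209 to 0.700 CPM in the same order. The part of either list in the results was not tested. The counts come from whole cultures, in which fewer cells of a type and less RNA per cell cannot be told apart. Genes were called changed at an adjusted p under 0.05 by the quasi-likelihood test of edgeR, with Benjamini-Hochberg correction over the 11760 genes tested.

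A fatty acid enters oxidation as an acyl-CoA, made by a long-chain acyl-CoA synthetase. The carnitine shuttle carries it across the inner mitochondrial membrane, and each turn of β-oxidation then dehydrogenates, hydrates, dehydrogenates again and cleaves the chain, with electrons passed on through the electron transfer flavoprotein. Very long and branched chains are first shortened in peroxisomes. PPARs are fatty acid-sensing nuclear receptors that bind DNA with a retinoid X receptor partner and control many of these genes; in macrophages PPARγ is the form best known for lipid handling, and oxidation is usually described as a feature of alternatively activated rather than inflammatory cells.

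The regulators moved in opposite directions when macrophages were stimulated. Pparg (ENSMUSG00000000440, GRCm38 chr6:115360951-115490399, plus strand) had 41.6, 47.7 and 45.5 CPM in M0 and 8.21, 11.5 and 9.37 CPM in IFNγ + LPS. Every stimulated library lay below every resting one, and the transcript of this receptor was 4.59-fold lower (log2 fold change of -2.20 ± 0.13 (SE), edgeR adjusted p = 6.1e-23). Ppard (chr17:28232700-28301474), which encodes the broadly expressed PPARδ, went the other way, from 9.44, 5.73 and 6.54 CPM in M0 to 14.1, 18.7 and 12.6 CPM in IFNγ + LPS, with no overlap. It rose 2.11-fold (log2 fold change of 1.08 ± 0.17, adjusted p = 1.28e-07). Ppargc1b, a coactivator of PPARs and estrogen-related receptors, had 4.07, 3.60 and 2.78 CPM in M0 and 21.7, 27.9 and 26.4 CPM in IFNγ + LPS. It rose 7.28-fold (log2 fold change of 2.86 ± 0.17, adjusted p = 5.34e-22). Ppara, the receptor that dominates in liver, and Pdk4, a kinase that restrains pyruvate dehydrogenase and is a classic PPAR target, had 0 reads in all 12 libraries. Counting 3 reads over the 3 libraries of a group as the limit that a count of 0 allows, either transcript could be present at up to 0.135 to 0.215 CPM, and these limits cover counting error only. Per kilobase of exon, the order of the receptors and coactivator in M0 was Pparg at 15.2 ± 1.05, Ppard at 0.963 ± 0.26 and Ppargc1b at 0.873 ± 0.163 CPM (mean ± SD, n = 3), where the last pair did not differ beyond their spread. In IFNγ + LPS it was Ppargc1b at 6.35 ± 0.813, Pparg at 3.28 ± 0.57 and Ppard at 2.01 ± 0.43 CPM. The lengths are unions of all annotated exons, 2953 bases for Pparg and 7514 for Ppard. In CPM alone, Ppard at 15.1 ± 3.21 lay above Pparg at 9.70 ± 1.68 in IFNγ + LPS.

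The largest change with IFNγ + LPS among the 33 genes tested was that of Acsl1 (ENSMUSG00000018796, chr8:46471037-46536051), a long-chain acyl-CoA synthetase of the mitochondrial surface and the endoplasmic reticulum. It had 46.5, 47.0 and 46.5 CPM in M0 and 2284, 2166 and 2144 CPM in IFNγ + LPS, a 47.1-fold rise (log2 fold change of 5.56 ± 0.067, edgeR adjusted p = 1.95e-55). The replicates of either group were close together beside this distance. Acsl3, the synthetase associated with lipid droplets, fell from 28.8, 26.6 and 25.2 CPM to 1.68, 4.14 and 4.12 CPM, which is 7.89-fold (log2 fold change of -2.98 ± 0.19, adjusted p = 1.59e-20). Acsl5 rose from 145 ± 6.86 to 179 ± 5.62 CPM (mean ± SD, n = 3; log2 fold change of 0.30 ± 0.062, adjusted p = 2.18e-05), although with scaling by library size alone its value was -0.17. Acsl4, which prefers arachidonic acid, had 99.7, 104 and 115 CPM in M0 and 99.6, 104 and 118 CPM in IFNγ + LPS, and the change did not pass the test (log2 fold change of 0.02 ± 0.068, adjusted p = 0.817). The thioesterases Acot1 and Acot2, which hydrolyse acyl-CoAs in the cytosol and in mitochondria, were both lower in IFNγ + LPS. Acot2 fell from 9.36 ± 1.52 to 4.30 ± 1.62 CPM (log2 fold change of -1.12 ± 0.22, adjusted p = 9.63e-06). Acot1 was counted with 31 reads over the 3 M0 libraries and 2 over the 3 of IFNγ + LPS, a ratio of 11.2 with an exact 95% counting interval of 2.86 to 96.9 (adjusted p = 0.000118). The transcripts share sequence at 95% identity or more over 31.6% of Acot1 and 58.0% of Acot2, so reads could be split between them, and neither value is certain.

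Compared per kilobase of exon, Acsl1 went from rank 26 of the 35 genes in M0, at 4.45 ± 0.0282 CPM, to rank 1 in IFNγ + LPS, at 209.7 ± 7.16 CPM (mean ± SD, n = 3). The length is the union of all annotated exons, 10483 bases for Acsl1 and 2005 for Acadl, and the order between genes depends on it. In CPM alone, Acsl1 at 46.7 ± 0.296 and Acadl at 46.9 ± 2.41 did not differ beyond their spread in M0. Per kilobase in M0, the levels of Hsd17b4 (30.4 ± 1.03) and Acsl5 (29.9 ± 1.41) led and did not differ beyond their spread, followed by Acadl (23.4 ± 1.2). In IFNγ + LPS the genes after Acsl1 were Acsl5 (36.9 ± 1.16), Cpt1a (33.0 ± 0.852) and Acadl (32.0 ± 1.33), and the last pair did not differ beyond their spread. Summed over the 33 genes tested, levels were 1588 ± 11.7 CPM in M0 and 3719 ± 57.2 CPM in IFNγ + LPS. Without Acsl1 the sums were 1542 ± 11.4 and 1521 ± 18.1 CPM. The rise of the sum was thus that of Acsl1, and the other genes together were no higher in IFNγ + LPS than in M0.

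**Figure D1:**
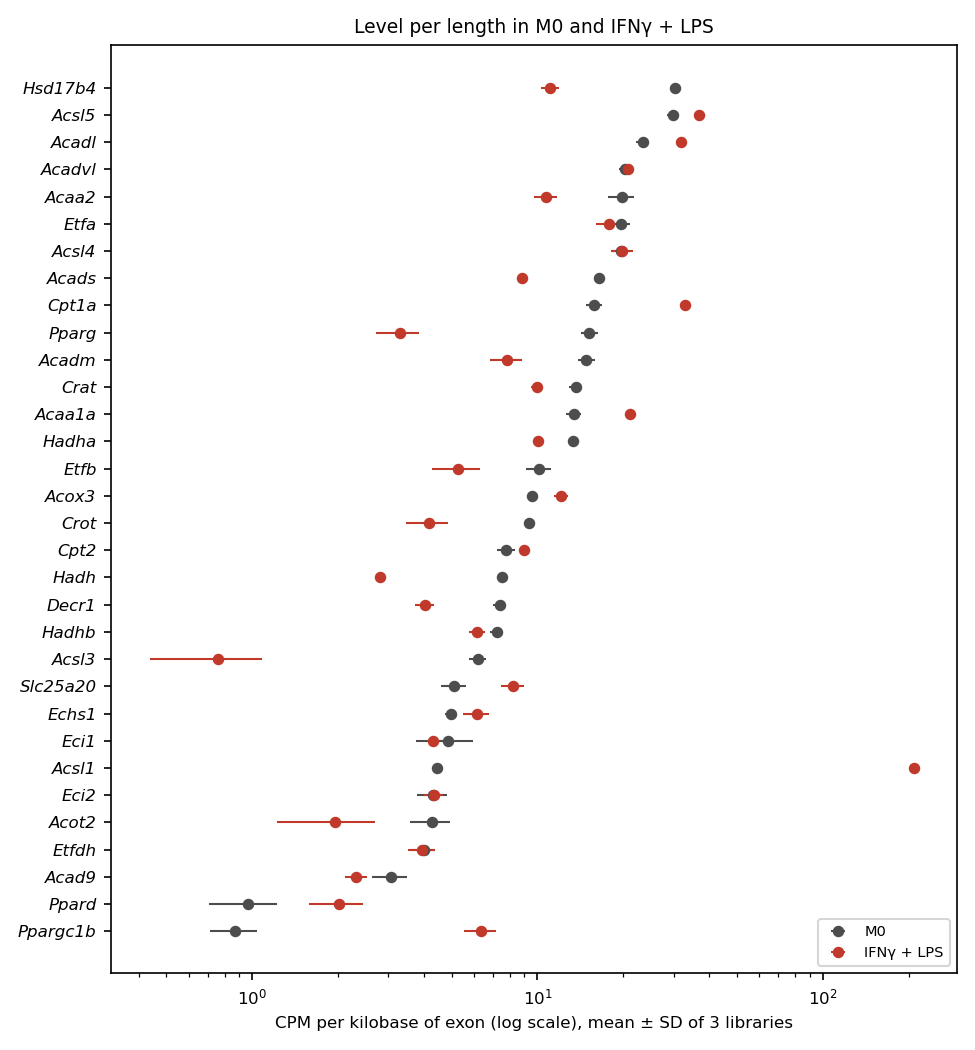
CPM per kilobase of exon (log axis, mean ± SD of 3 libraries) in M0 and IFNγ + LPS for 32 of the 33 genes tested, ordered by the level in M0; Acot1, with 2 reads in IFNγ + LPS, is left out. Acsl1 goes from 4.45 in M0 to 209.7 in IFNγ + LPS, far to the right of every other gene.

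RefSeq gives Acsl1 a pair of transcription starts. The 250 bases before each are shown because no other gene here rose as far, and counts per gene do not tell which start was used (RefSeq, GRCm38.p6, plus strand, chr8:46470787-46471036 and chr8:46490716-46490965). Neither holds any of the motifs searched, so nothing is in capitals.
Acsl1 first start: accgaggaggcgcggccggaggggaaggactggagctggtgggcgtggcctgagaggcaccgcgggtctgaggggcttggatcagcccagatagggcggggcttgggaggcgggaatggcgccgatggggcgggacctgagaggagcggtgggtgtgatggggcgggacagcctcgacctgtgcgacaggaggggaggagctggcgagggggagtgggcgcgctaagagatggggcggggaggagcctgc
Acsl1 second start: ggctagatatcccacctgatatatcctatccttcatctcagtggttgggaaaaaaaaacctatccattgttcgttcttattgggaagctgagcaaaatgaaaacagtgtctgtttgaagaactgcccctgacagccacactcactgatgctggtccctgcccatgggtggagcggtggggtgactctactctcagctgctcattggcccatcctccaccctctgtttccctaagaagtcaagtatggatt
Promoter windows of 300 bases, from 250 before to 50 after a RefSeq start, were found for 29 of the 35 genes, in 32 windows. The genes without one are Ppargc1b, Acaa2, Crat, Decr1, Hsd17b4 and Acad9. The motifs were searched on both strands. The PPAR direct repeat AGGTCANAGGTCA was in 0 of the 32 windows and in 0.0396% of the 32851 windows of all genes. Its half-site AGGTCA, which the repeat contains, was in 6 of the 32 windows (18.8%) and in 16.3% of all windows, in those of Acadm, Echs1, Acadvl and Cpt1a and at 2 of the 3 starts of Pparg, 28 and 9 bases before them. The gamma-activated sequence TTCNNNGAA was in 3 of the 32 windows (9.38%) and in 8.30% of all windows, in those of Cpt2, Hadha and Hadhb. The windows of Hadha and Hadhb overlap and share the same match, read on opposite strands, so these 3 windows hold 2 matches. The element of estrogen-related receptors TCAAGGTCA, which also holds the half-site, and the interferon-stimulated core GAAANNGAAA had no match in the 32 windows and were in 0.423% and 3.44% of all windows. The shares among the 32 windows thus lay close to those of all genes, and a match is a match of letters only.

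Of the 5 genes of the carnitine shuttle, 2 rose and 2 fell with IFNγ + LPS, where 37.1% of all genes tested rose and 36.2% fell. Cpt1a (ENSMUSG00000024900, chr19:3322334-3385733), the outer-membrane carnitine palmitoyltransferase that sets the pace of mitochondrial import, had 117, 115 and 130.3 CPM in M0 and 247, 250.4 and 259 CPM in IFNγ + LPS. Groups did not overlap, and the level rose 2.08-fold (log2 fold change of 1.06 ± 0.057, edgeR adjusted p = 6.01e-24). Slc25a20, which exchanges acylcarnitine for carnitine across the inner membrane, rose from 23.4, 27.6 and 23.1 CPM to 38.3, 37.3 and 44.0 CPM (1.61-fold, log2 fold change of 0.69 ± 0.10, adjusted p = 2.18e-08). Cpt2, the inner-membrane transferase that gives back the acyl-CoA, had 18.6 ± 1.38 CPM in M0 and 21.4 ± 0.275 CPM in IFNγ + LPS and did not pass the test (log2 fold change of 0.20 ± 0.12, adjusted p = 0.116; -0.27 with scaling by library size alone). The transferases for short and medium chains were lower. Crot, of peroxisomes, fell from 49.3, 52.5 and 51.5 CPM to 20.8, 20.2 and 27.2 CPM (log2 fold change of -1.17 ± 0.10, adjusted p = 3.57e-15), and Crat, which acts on acetyl groups, fell from 73.4 ± 3.70 to 53.5 ± 2.40 CPM (log2 fold change of -0.46 ± 0.075, adjusted p = 3.12e-07).

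A stretch of 234 bases upstream of the RefSeq start of Cpt1a (3323301) is shown because its response to DGAT1i differed between resting and stimulated cells, as described further on. It ends short of the start, since the bases next to the start are exonic in GENCODE and were left out (RefSeq, GRCm38.p6, plus strand, chr19:3323051-3323284, which lies inside the span of the gene as GENCODE gives it, outside its exons). Capitals mark the half-site, read on the opposite strand, 94 bases before the RefSeq start.
Cpt1a: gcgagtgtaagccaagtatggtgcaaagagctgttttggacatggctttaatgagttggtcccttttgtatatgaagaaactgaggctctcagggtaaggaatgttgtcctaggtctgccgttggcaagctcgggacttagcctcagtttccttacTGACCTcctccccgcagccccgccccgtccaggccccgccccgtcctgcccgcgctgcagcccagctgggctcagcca

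Of the 5 acyl-CoA dehydrogenase genes, which serve the first step of the cycle, 1 rose and 3 fell with IFNγ + LPS, where 37.1% of all genes tested rose and 36.2% fell. Acadl (ENSMUSG00000026003, chr1:66830839-66863277), the long-chain acyl-CoA dehydrogenase, had 46.8, 44.5 and 49.3 CPM in M0 and 64.0, 66.8 and 61.4 CPM in IFNγ + LPS (log2 fold change of 0.45 ± 0.079, adjusted p = 1.11e-06, although -0.017 with scaling by library size alone). The dehydrogenases for medium and short chains fell. Acadm went from 62.5, 57.0 and 54.9 CPM to 34.7, 26.8 and 30.5 CPM (log2 fold change of -0.93 ± 0.097, adjusted p = 5.01e-12), and Acads from 38.4, 35.6 and 37.7 CPM to 20.6, 19.4 and 19.9 CPM (-0.90 ± 0.11, adjusted p = 6.89e-11). Acad9, also an assembly factor of respiratory complex I, fell from 25.1 ± 3.48 to 19.0 ± 1.65 CPM (log2 fold change of -0.39 ± 0.15, adjusted p = 0.0223), a call that was lost without M0 replicate 1, IFNγ + LPS replicate 1 or IFNγ + LPS replicate 3, with values from -0.46 to -0.27 as single libraries were left out. Acadvl, for very long chains, had 54.4 ± 2.51 and 55.9 ± 1.59 CPM and was not called (log2 fold change of 0.04 ± 0.076, adjusted p = 0.639, and -0.43 with scaling by library size alone). Its exons share 1151 bases (42.9%) with Dvl2 on the opposite strand, so its count is uncertain.

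In the later steps of the cycle, 4 of 5 genes fell, where 36.2% of all genes tested did. Hadh, the dehydrogenase for shorter hydroxyacyl chains, had 38.9, 37.4 and 36.1 CPM in M0 and 13.5, 13.9 and 14.4 CPM in IFNγ + LPS. It was 2.69-fold lower, with no overlap (log2 fold change of -1.43 ± 0.11, adjusted p = 2.62e-17). Acaa2, the thiolase that cleaves off acetyl-CoA, fell from 29.9 ± 3.19 CPM (mean ± SD) to 16.2 CPM, with stimulated libraries at most at 17.9 CPM (log2 fold change of -0.89 ± 0.12, adjusted p = 1.86e-09). Hadha and Hadhb encode the subunits of the trifunctional protein, which carries out the later steps on long chains, and both fell by less. Hadha went from 116 ± 4.51 to 88.0 ± 2.01 CPM (log2 fold change of -0.41 ± 0.064, adjusted p = 1.36e-07) and Hadhb from 47.5 ± 2.50 to 40.5 ± 2.64 CPM (-0.23 ± 0.085, adjusted p = 0.0155), the latter not called without M0 replicate 1 or IFNγ + LPS replicate 1 (-0.25 to -0.17 as single libraries were left out). Echs1, the hydratase for short chains, rose from 41.2 ± 1.87 to 50.8 ± 5.18 CPM (log2 fold change of 0.30 ± 0.086, adjusted p = 0.0016, although -0.17 with scaling by library size alone).

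Hadha and Hadhb lie head to head on chromosome 5, Hadha on the minus and Hadhb on the plus strand, and the 85 bases between their gene models are shown because both genes fell with IFNγ + LPS (GRCm38.p6, plus strand, chr5:30155163-30155247). The gamma-activated letters of their windows lie outside these bases, so nothing is in capitals.
Hadha-Hadhb: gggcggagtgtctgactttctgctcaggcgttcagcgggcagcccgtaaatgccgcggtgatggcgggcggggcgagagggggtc

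Of the auxiliary enzymes that unsaturated chains need, Decr1, the dienoyl-CoA reductase, fell from 26.9, 29.7 and 29.1 CPM to 16.2, 16.4 and 14.2 CPM (log2 fold change of -0.87 ± 0.11, adjusted p = 1.1e-09). The isomerases Eci1 and Eci2 were not called, with log2 fold changes of -0.18 ± 0.18 and 0.01 ± 0.11 (the latter -0.46 with scaling by library size alone), and 21.3% of Eci2 matches Gm15287, which makes its count uncertain. Of the electron transfer flavoprotein, the subunit gene Etfb fell from 11.8 ± 1.17 to 6.13 ± 1.17 CPM (log2 fold change of -0.95 ± 0.18, adjusted p = 5.74e-06). The other subunit gene Etfa and the gene of the oxidoreductase Etfdh had log2 fold changes of -0.15 ± 0.098 and -0.02 ± 0.11 and were not called. Etfb shares 53.0% of its exon bases with Gm45233 on the same strand, so its reads could belong to either.

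The 3 peroxisomal genes split. Hsd17b4, the multifunctional protein of peroxisomal oxidation, had 102, 108 and 101 CPM in M0 and 34.5, 39.6 and 39.0 CPM in IFNγ + LPS, and fell 2.74-fold (log2 fold change of -1.45 ± 0.082, adjusted p = 8.78e-23). Acaa1a, a peroxisomal thiolase, rose from 59.1, 62.7 and 55.6 CPM to 90.1, 92.3 and 97.2 CPM (log2 fold change of 0.66 ± 0.071, adjusted p = 4.81e-12). Its transcript matches Acaa1b closely over 34.1%, although Acaa1b had a mean of 0.156 CPM or less in every group. Its exons also share 290 bases (6.57%) with Myd88 on the opposite strand, so its count is uncertain. Acox3, an oxidase for branched chains, rose from 115, 106 and 111 CPM to 133, 149 and 137 CPM (log2 fold change of 0.34 ± 0.061, adjusted p = 2.37e-06, although -0.13 with scaling by library size alone).

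**Figure D2:**
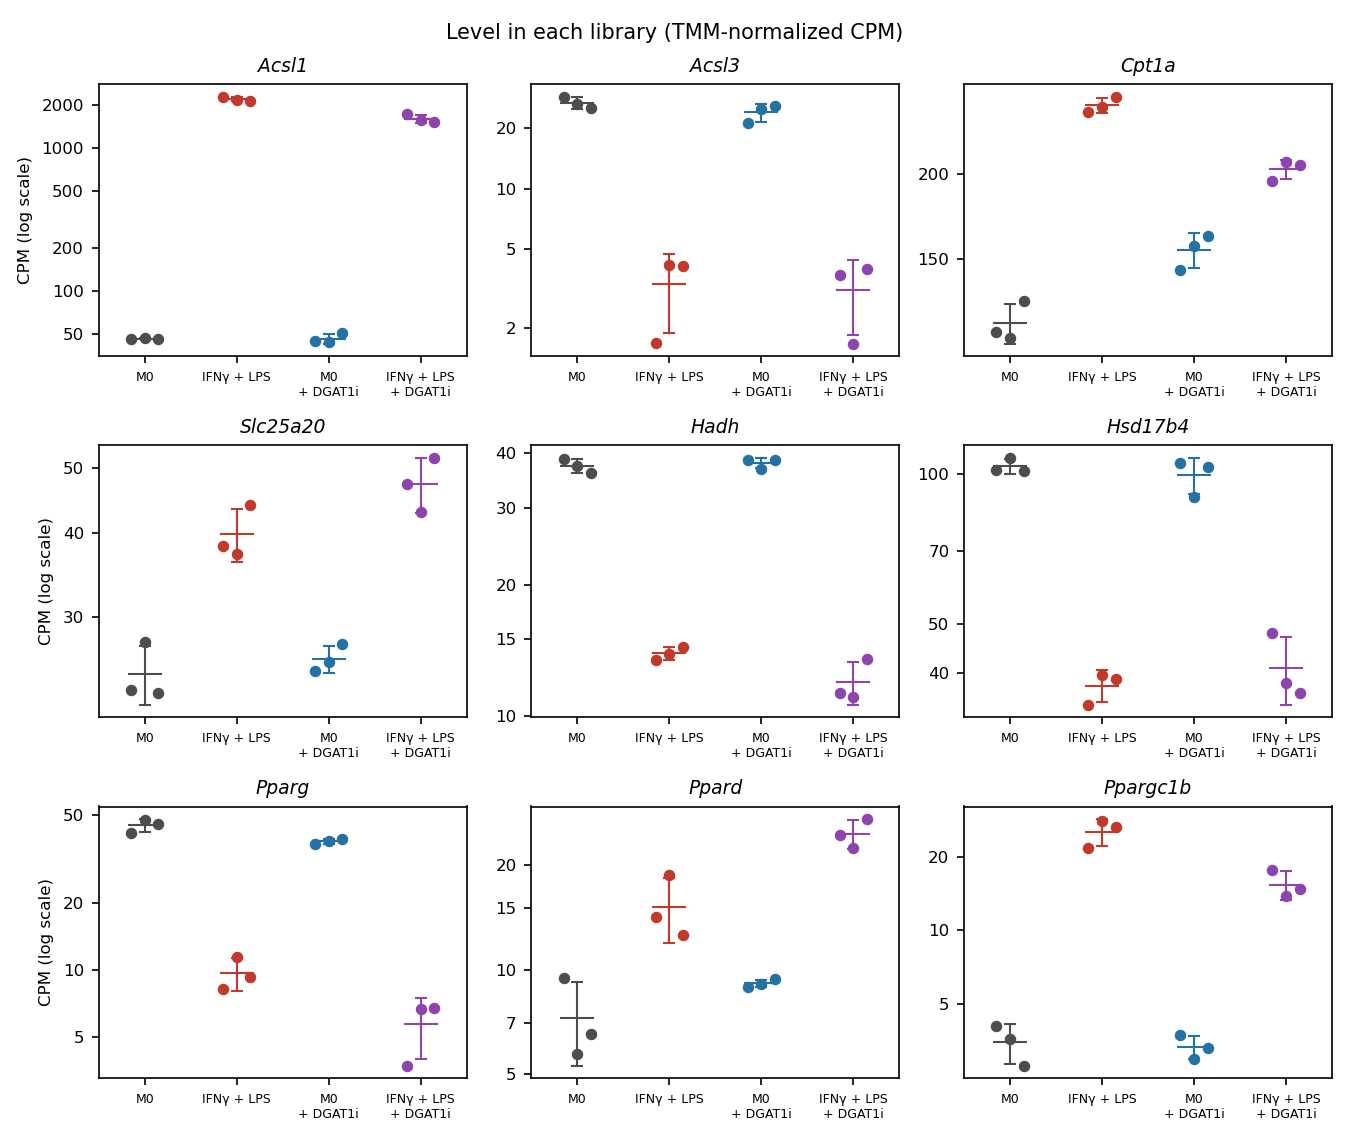
CPM (log axis) in each of the 12 libraries for 9 genes that changed with IFNγ + LPS; points are libraries, bars mean ± SD of 3. Acsl1, Cpt1a, Slc25a20, Ppard and Ppargc1b are higher and Acsl3, Hadh, Hsd17b4 and Pparg lower in the stimulated groups, with and without DGAT1i; the sign for Cpt1a with DGAT1i turns under scaling by library size alone (-0.028).

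Counted together, 10 of the 33 genes tested rose (30.3%) and 16 fell (48.5%) in IFNγ + LPS against M0, where 37.1% of all genes tested rose and 36.2% fell. Of these, 6 rose and 12 fell by more than 1.5-fold. All genes were not counted at that cut, so this split has no share to set it against. The median log2 fold change of the 33 genes was -0.18, against 0.01 for all genes tested. The split depends on the scaling: with library size alone, where the median of all genes shifts to -0.46, 6 of the 33 rose and 25 fell, where 2340 of all 11760 genes tested rose and 7002 fell.

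Stimulation in the presence of DGAT1i was compared in the same way. There 10 of the 33 genes rose and 17 fell, where 35.3% of all genes tested rose and 35.3% fell, and the median log2 fold change was -0.30 against -0.01 for all genes. With library size alone 7 rose and 25 fell, where 2333 of all 11760 genes tested rose and 6799 fell. The summed level of the 9 neutrophil and granulocyte precursor markers was 22.9 to 29.0 CPM in M0 with DGAT1i and 63.0 to 81.0 CPM in IFNγ + LPS with DGAT1i, with 6 of the 9 counted in each, and its part in the result was not tested. In M0 and IFNγ + LPS without DGAT1i it was 31.6 to 38.7 and 15.2 to 25.5 CPM. Acsl1 rose from 45.0, 43.9 and 50.9 CPM in M0 with DGAT1i to 1727, 1566 and 1521 CPM (34.4-fold, log2 fold change of 5.10 ± 0.067, edgeR adjusted p = 8.34e-54). Pparg fell from 37.2, 38.0 and 39.1 CPM to 3.71, 6.68 and 6.77 CPM (6.70-fold, log2 fold change of -2.74 ± 0.15, adjusted p = 1.04e-23). Ppard rose from 8.90, 9.09 and 9.37 CPM to 24.3, 22.3 and 27.1 CPM (2.68-fold, log2 fold change of 1.42 ± 0.15, adjusted p = 2.27e-12). In all of these genes the stimulated libraries lay apart from the resting ones. Ppargc1b rose with a log2 fold change of 2.20 ± 0.19 (adjusted p = 3.59e-15), and Acsl3, Hadh and Hsd17b4 fell with -2.95 ± 0.20, -1.67 ± 0.12 and -1.28 ± 0.083.

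Further members past 1.5-fold under DGAT1i were Slc25a20 (log2 fold change of 0.86 ± 0.099), Acadl (0.89 ± 0.074), Acaa1a (0.77 ± 0.072) and Acox3 (0.66 ± 0.061), which rose, and Acot2 (-1.51 ± 0.22), Acadm (-0.94 ± 0.097), Acads (-0.59 ± 0.10), Acaa2 (-0.83 ± 0.12), Crot (-0.86 ± 0.10) and Etfb (-0.76 ± 0.19), which fell. Acot1 had 29 reads over the M0 libraries with DGAT1i and 0 over those of IFNγ + LPS with DGAT1i, and was lower by a factor of at least 6.08, taking 3 reads over the 3 libraries as the limit for a count of 0. Smaller changes were called in Cpt1a (0.39 ± 0.057, adjusted p = 2.33e-08, but -0.028 with scaling by library size alone), Acsl4 (0.27 ± 0.068, -0.15 with library size alone), Acsl5 (0.20 ± 0.065, -0.22 with library size alone), Crat (-0.43 ± 0.075), Decr1 (-0.40 ± 0.11), Hadha (-0.39 ± 0.067), Acad9 (-0.48 ± 0.16), Etfa (-0.30 ± 0.11) and Hadhb (-0.21 ± 0.09). Of these, 4 lost the call without single libraries. Acad9, whose groups overlapped, did so without replicate 2 or 3 of IFNγ + LPS with DGAT1i (adjusted p up to 0.104, log2 fold changes from -0.79 to -0.27), Etfa without replicate 3 of that group (0.126), Hadhb without replicate 2 or 3 of either group (0.131), and Acsl5 without replicate 3 of M0 with DGAT1i or replicate 1 of IFNγ + LPS with DGAT1i (0.106). The 6 genes not called were Cpt2, Acadvl, Echs1, Eci1, Eci2 and Etfdh, with log2 fold changes from -0.40 to 0.13. Eci1, at -0.40, was called without M0 replicate 2 or IFNγ + LPS with DGAT1i replicate 1 (adjusted p down to 0.0116).

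**Figure D3:**
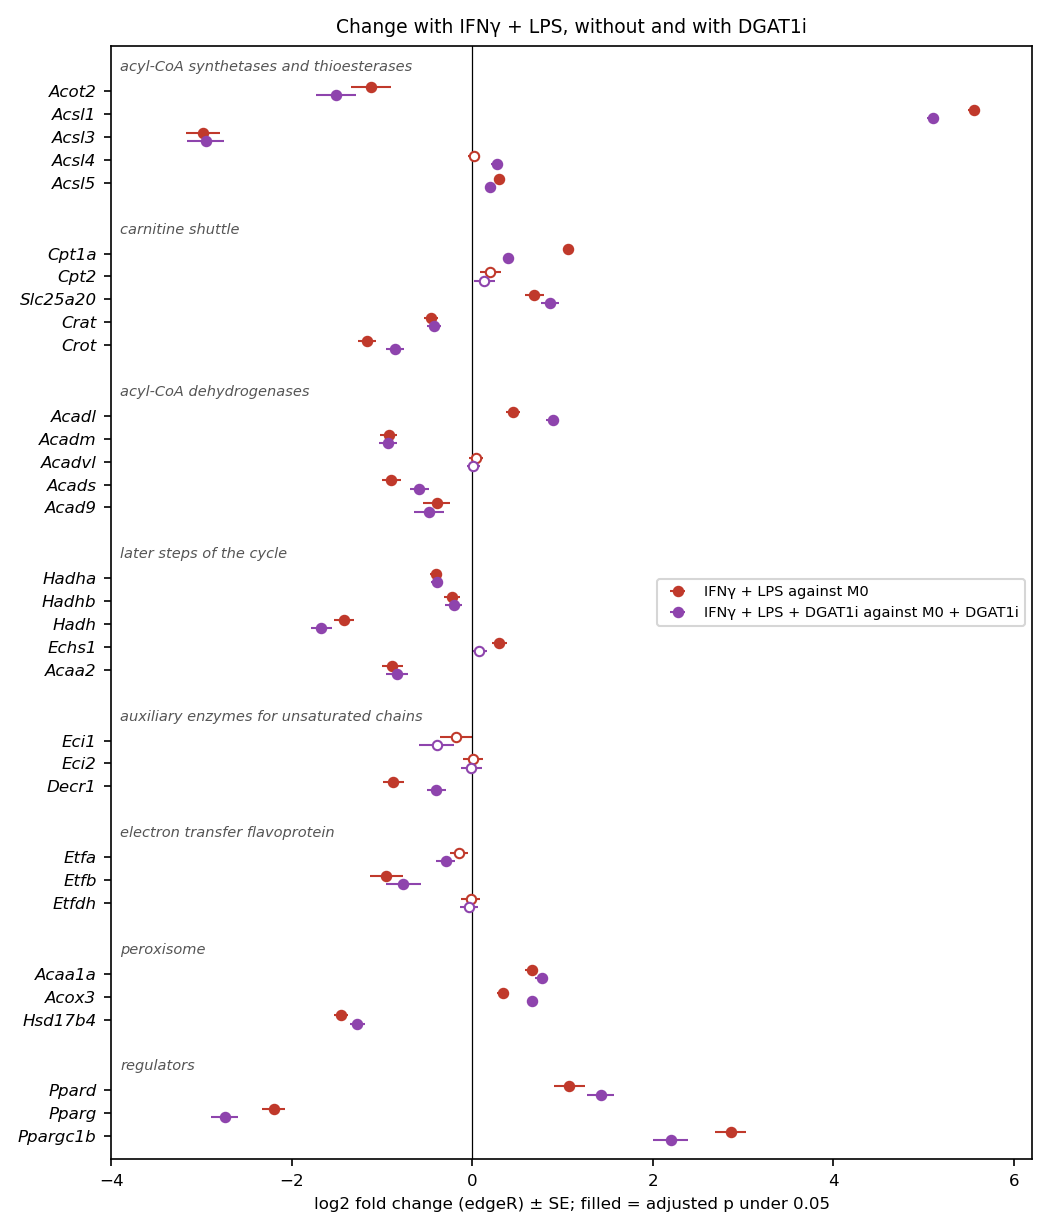
log2 fold change ± SE (edgeR) with IFNγ + LPS, without and with DGAT1i, for 32 genes by role. Filled points are called, and Acot1 is left out because its stimulated groups hold 2 and 0 reads. Acsl1 stands at 5.56 and 5.10; under scaling by library size alone 8 of the values without and 6 of those with DGAT1i change sign.

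DGAT1i in resting cells moved none of these genes by more than 1.5-fold, a cut at which all genes were not counted. Of the 33 tested, 2 rose (6.06%) and 4 fell (12.1%), where 11.0% of all genes tested rose and 13.4% fell. Cpt1a rose from 117, 115 and 130.3 CPM in M0 to 145, 157 and 162 CPM in M0 with DGAT1i (1.28-fold, log2 fold change of 0.36 ± 0.058, edgeR adjusted p = 1.91e-06). Echs1 rose from 42.4, 39.0 and 42.0 CPM to 50.5, 55.4 and 47.5 CPM (log2 fold change of 0.31 ± 0.081, adjusted p = 0.00251). Neither pair of groups overlapped. Acsl5 fell from 140.5, 153 and 143 CPM to 125, 129.9 and 110.1 CPM (log2 fold change of -0.26 ± 0.062, adjusted p = 0.000936). The other falls were small and close to the threshold: Pparg at -0.24 ± 0.091 (adjusted p = 0.0473), Hadhb at -0.21 ± 0.08 (adjusted p = 0.0488) and Hadha at -0.17 ± 0.06 (adjusted p = 0.0314).

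These last 3 calls each depend on several single libraries. Without M0 replicate 2, or without replicate 1 or 2 of M0 with DGAT1i, all 3 were lost and 1 fall remained; without M0 replicate 3 both Hadha and Pparg were lost, and without replicate 3 of M0 with DGAT1i or of IFNγ + LPS both Hadhb and Pparg were. Hadhb was also lost without M0 replicate 1 or replicate 3 of IFNγ + LPS with DGAT1i. When the M0 libraries with DGAT1i were limited to the 1 whose description names T863, an alternative chosen after seeing the data, 1 gene rose and 0 fell, and Cpt1a was the rise. The spread was then taken from the other groups, and a group of 1 library can lose calls by its size alone. The 27 genes not called had log2 fold changes from -0.22 (Etfb) to 0.34 (Ppard, 0.34 ± 0.18, adjusted p = 0.162). Ppard was called without M0 replicate 1 (adjusted p = 0.0303, with values from 0.19 to 0.57 as single libraries were left out), and Acadl, at 0.19 with all libraries, without M0 replicate 3 or M0 with DGAT1i replicate 1 (adjusted p down to 0.017). Acsl1, at 46.6 ± 3.79 CPM with and 46.7 ± 0.296 CPM without the inhibitor, was among those not called (log2 fold change of -0.00 ± 0.073).

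In IFNγ + LPS cells DGAT1i raised 6 of the 33 genes (18.2%) and lowered 6 (18.2%), where 13.5% of all genes tested rose and 16.3% fell. The median log2 fold change was -0.01, as it was for all genes. The regulators again went in opposite directions. Ppard rose from 14.1, 18.7 and 12.6 CPM to 24.3, 22.3 and 27.1 CPM (1.61-fold, log2 fold change of 0.69 ± 0.15, adjusted p = 0.000178). Pparg fell from 8.21, 11.5 and 9.37 CPM to 3.71, 6.68 and 6.77 CPM (1.72-fold, log2 fold change of -0.78 ± 0.20, adjusted p = 0.00207). Ppargc1b fell from 21.7, 27.9 and 26.4 CPM to 17.7, 13.8 and 14.7 CPM (1.65-fold, log2 fold change of -0.72 ± 0.14, adjusted p = 5.15e-05). Groups did not overlap in any of the 3.

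Among the enzymes, Acadl rose most, from 64.0, 66.8 and 61.4 CPM to 105, 94.9 and 97.6 CPM (1.55-fold, log2 fold change of 0.63 ± 0.076, edgeR adjusted p = 1.11e-09). Decr1 rose from 16.2, 16.4 and 14.2 CPM to 22.4, 21.3 and 19.4 CPM (log2 fold change of 0.43 ± 0.13, adjusted p = 0.00741). Acox3 rose from 133, 149 and 137 CPM to 163, 181 and 185 CPM (log2 fold change of 0.33 ± 0.061, adjusted p = 1.93e-05). In all 3 every library with the inhibitor lay above every library without it. Acads rose from 20.6, 19.4 and 19.9 CPM to 29.8, 24.6 and 22.2 CPM (log2 fold change of 0.36 ± 0.12, adjusted p = 0.0179), and Slc25a20 from 38.3, 37.3 and 44.0 CPM to 47.3, 43.0 and 51.8 CPM (0.25 ± 0.097, adjusted p = 0.0498), the latter with overlapping groups. Acads lost the call without IFNγ + LPS replicate 2 or IFNγ + LPS with DGAT1i replicate 1 (adjusted p up to 0.202), Decr1 without IFNγ + LPS replicate 3 (adjusted p = 0.0524), and Slc25a20 without any 1 of 9 libraries, all but M0 replicate 2, IFNγ + LPS replicate 3 and IFNγ + LPS with DGAT1i replicate 2 (adjusted p up to 0.252). Slc25a20 also lost the call with RLE size factors, another scaling, and with library size alone, where 0 of the 5 carnitine shuttle genes rose.

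Of the synthetases and thioesterases 2 of 6 fell, of the carnitine shuttle 1 of 5 fell and 1 rose, and of the electron transfer flavoprotein 1 of 3 fell, where 16.3% of all genes tested fell and 13.5% rose. Acsl1 fell from 2284, 2166 and 2144 CPM to 1727, 1566 and 1521 CPM (1.37-fold, log2 fold change of -0.45 ± 0.052, adjusted p = 3.72e-10). Acsl5 fell from 185, 179 and 174 CPM to 155, 132 and 132 CPM (log2 fold change of -0.36 ± 0.065, adjusted p = 1.29e-05). Cpt1a fell from 247, 250.4 and 259 CPM to 196, 208 and 206 CPM (1.24-fold, log2 fold change of -0.31 ± 0.057, adjusted p = 1.61e-05). All 3 fell without overlap between the groups. Etfa fell from 33.5, 35.3 and 29.2 CPM to 27.8, 28.8 and 22.4 CPM (log2 fold change of -0.30 ± 0.11, adjusted p = 0.0314), a call lost without IFNγ + LPS replicate 1 or 2 or IFNγ + LPS with DGAT1i replicate 3 (adjusted p up to 0.202). Of the 21 genes not called, Hadha (-0.15 ± 0.071, adjusted p = 0.092) and Acsl4 (0.17 ± 0.07, adjusted p = 0.0603) came closest. Acsl4 was called without replicate 3 of either group (adjusted p down to 0.0155), and Acad9, at -0.26 with all libraries, without replicate 1 of IFNγ + LPS with DGAT1i (0.00768). Acot1 had 2 and 0 reads over the groups compared. Beside these changes, the summed level of the 9 neutrophil and granulocyte precursor markers was 63.0 to 81.0 CPM in IFNγ + LPS with DGAT1i and 15.2 to 25.5 CPM in IFNγ + LPS, with 6 and 5 of the 9 counted and Ly6g and Retnlg at 0 reads in every library. Its part in the result was not tested.

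**Figure D4:**
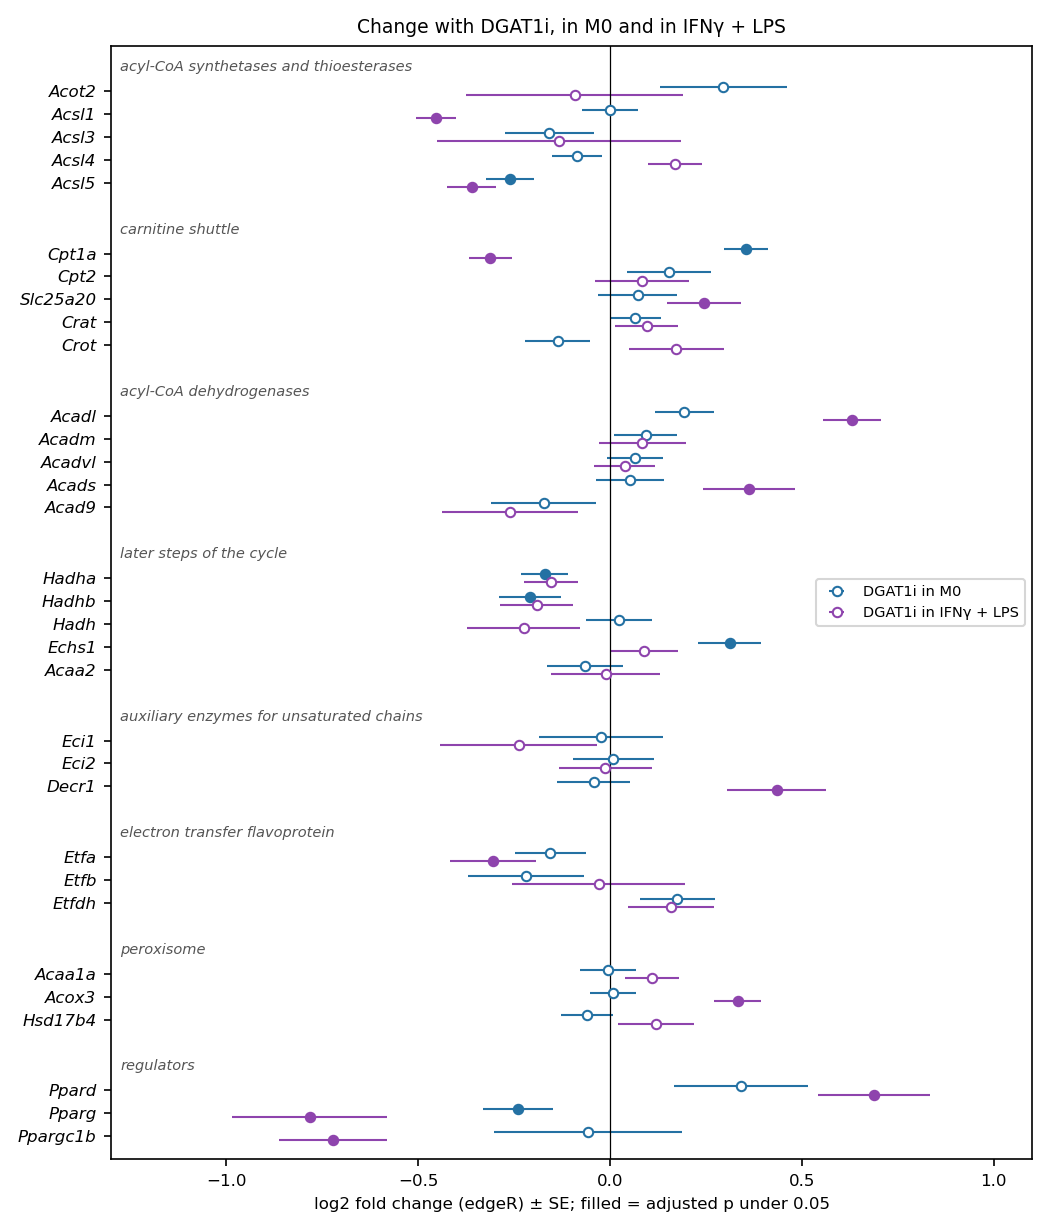
log2 fold change ± SE (edgeR) with DGAT1i in M0 and in IFNγ + LPS for 32 genes by role; filled points are called, and Acot1 is left out. Cpt1a stands at 0.36 in M0 and -0.31 in IFNγ + LPS, and Pparg at -0.24 and -0.78.

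Whether the inhibitor acted differently in resting and stimulated cells was tested as the difference of both responses. It was called in 5 of the 33 genes, 3 with a higher response in IFNγ + LPS (9.09%) and 2 with a lower one (6.06%), where 8.66% of all genes tested were called higher and 9.80% lower. Cpt1a gave the largest difference of the 5, since DGAT1i raised it in M0 and lowered it in IFNγ + LPS (difference of -0.67 ± 0.081 on the log2 scale, edgeR adjusted p = 5.82e-09). Its order over the groups was M0, M0 with DGAT1i, IFNγ + LPS with DGAT1i and IFNγ + LPS, with no overlap between neighbours on the TMM scale. With scaling by library size alone the order of the middle pair turned (log2 fold change of -0.028). Acsl1, at the same level with and without DGAT1i in M0 within its spread, had the lower response in IFNγ + LPS (-0.45 ± 0.09, adjusted p = 0.000135). Acadl (0.44 ± 0.11, adjusted p = 0.00204), Acox3 (0.32 ± 0.086, adjusted p = 0.00434) and Decr1 (0.48 ± 0.16, adjusted p = 0.0286) had the higher response in IFNγ + LPS. Decr1 lost the call without 1 of 5 single libraries, namely M0 replicate 2, IFNγ + LPS replicate 3, M0 with DGAT1i replicate 2, or IFNγ + LPS with DGAT1i replicate 1 or 2 (adjusted p up to 0.0983). Pparg (-0.54 ± 0.22, adjusted p = 0.0818), Ppargc1b (-0.66 ± 0.28, adjusted p = 0.0968), Ppard (0.35 ± 0.23, adjusted p = 0.319) and Acsl4 (0.26 ± 0.096, adjusted p = 0.0544) did not pass with all libraries in the fit. Acsl4 passed without M0 replicate 1, IFNγ + LPS replicate 3 or IFNγ + LPS with DGAT1i replicate 3 (adjusted p down to 0.017), Pparg without IFNγ + LPS replicate 1 (0.0477, with values from -0.69 to -0.30 as single libraries were left out) and Crot, at 0.31 with all libraries, without IFNγ + LPS replicate 3 (0.0382). The difference in Ppard ranged from 0.11 to 0.54 and passed in none of these.

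**Figure D5:**
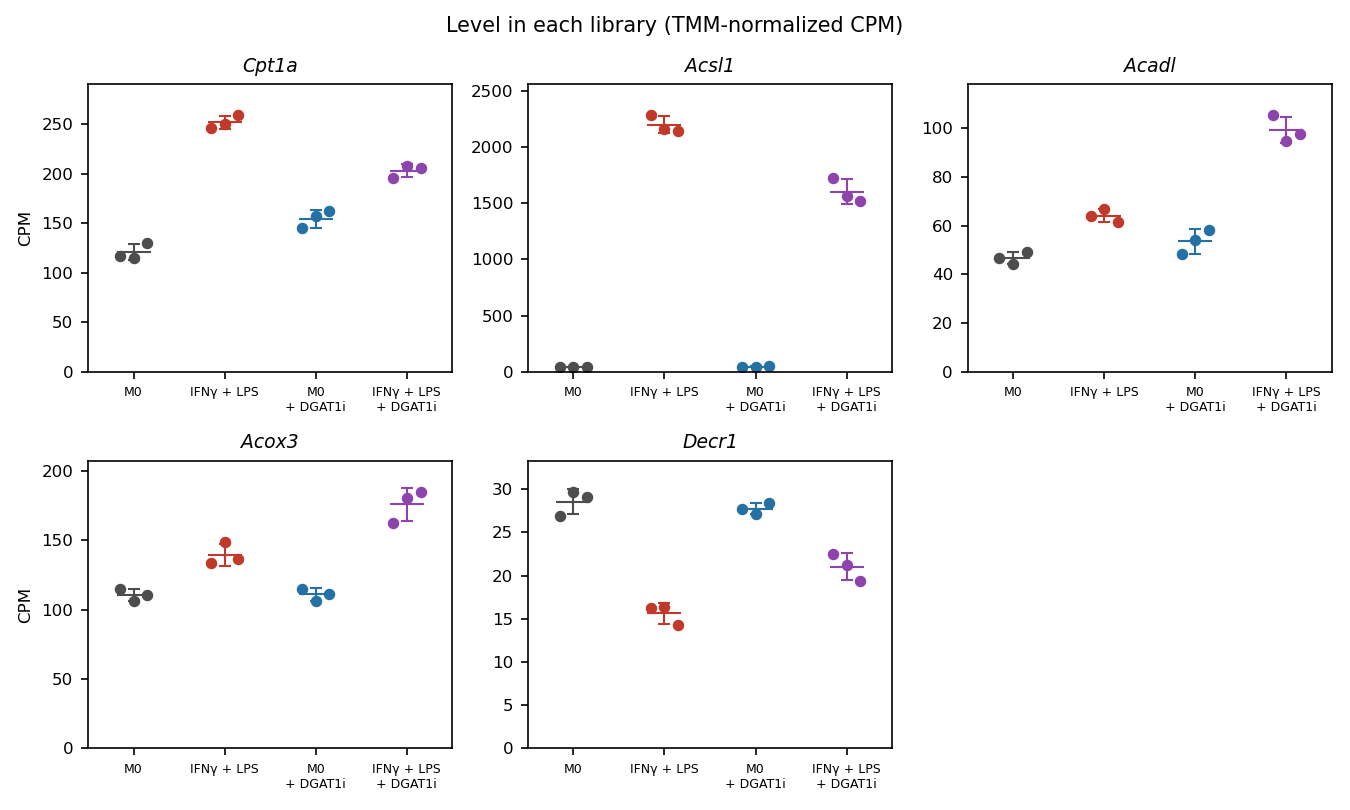
CPM (linear axes from 0) in each library for the 5 genes whose response to DGAT1i differed between M0 and IFNγ + LPS; points are libraries, bars mean ± SD of 3. Cpt1a is raised by DGAT1i in M0 and lowered in IFNγ + LPS, Acsl1 lies between 1521 and 1727 CPM in IFNγ + LPS with DGAT1i and between 2144 and 2284 CPM without it, and Acadl, Acox3 and Decr1 are higher with DGAT1i in IFNγ + LPS.

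Other genes of oxidation and of related acyl-CoA steps, which are not among the 35, were counted beside them. The list also holds genes that do not serve oxidation themselves, such as Acaca and Acacb. Of 44 such genes, 32 were tested. In IFNγ + LPS against M0, 8 rose and 15 fell (2 and 26 with scaling by library size alone), and with DGAT1i present 7 and 15 did (4 and 25). With DGAT1i in M0, 5 rose and 5 fell, and with DGAT1i in IFNγ + LPS 3 and 3 did. The shares of all genes tested that rose and fell in these 4 comparisons were 37.1% and 36.2%, 35.3% and 35.3%, 11.0% and 13.4%, and 13.5% and 16.3%. Their median log2 fold changes were -0.32, -0.26, 0.03 and 0.05, against 0.01, -0.01, 0.00 and -0.01 for all genes tested. The largest of these with IFNγ + LPS were Phyh, the peroxisomal phytanoyl-CoA hydroxylase (log2 fold change of 1.58, 28.0 ± 2.77 to 84.1 ± 2.36 CPM), and Abcd2, a peroxisomal fatty acid carrier (-3.81, 25.4 ± 3.87 to 1.77 ± 0.458 CPM). Phyh fell with DGAT1i in IFNγ + LPS (-0.55), and the response differed from that in M0 (-0.66). With DGAT1i present, Acacb, an acetyl-CoA carboxylase whose product restrains CPT1, rose most (1.42, at 0.776 ± 0.318 to 2.10 ± 0.461 CPM), and Pecr fell most (-3.50, 4.26 ± 1.57 to 0.346 ± 0.318 CPM). Among the genes called, the largest changes by DGAT1i in M0 were those of Acad11 (0.50) and Abcd2 (-0.34), and Acad8 had the largest positive difference (0.49).

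Of 26 partners and regulators of PPARs, 23 were tested, and 13 rose and 5 fell with IFNγ + LPS (2 and 15 with scaling by library size alone), where 37.1% of all genes tested rose and 36.2% fell. Their median log2 fold change was 0.18, against 0.01 for all genes tested. Esrra, an estrogen-related receptor that shares targets with PPARs, rose most (log2 fold change of 1.49, 31.8 ± 3.30 to 89.9 ± 7.41 CPM), and the coregulator Lpin1 fell most (-3.71, 41.3 ± 3.73 to 3.07 ± 1.32 CPM). With DGAT1i present, 11 rose and 5 fell (2 and 13), where 35.3% of all genes rose and 35.3% fell, with a median of 0.22 against -0.01, again led by Esrra (0.99) and Lpin1 (-2.86). With DGAT1i in M0 and in IFNγ + LPS their medians were 0.01 and -0.06, against 0.00 and -0.01. Rxra, a DNA-binding partner of PPARs, rose with DGAT1i in M0 (0.53, 76.3 ± 6.62 to 110.2 ± 5.09 CPM), where 2 of the 23 rose and 5 fell, Ncoa3 most (-0.33), beside 11.0% and 13.4% of all genes. In IFNγ + LPS with DGAT1i 3 rose, led by Prkab2 (0.56), and 5 fell, led by Nrf1 (-0.42), beside 13.5% and 16.3% of all genes. The response to DGAT1i was called higher in IFNγ + LPS than in M0 for 2 and lower for 4 of the 23, where 8.66% of all genes tested were called higher and 9.80% lower, upward most in Lpin1 (0.85) and downward most in Pprc1 (-0.56).

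Of 29 other genes known as PPAR targets, 22 were tested. With IFNγ + LPS 10 rose and 10 fell (7 and 12 with scaling by library size alone), and with DGAT1i present 10 and 8 did (7 and 12), where 37.1% and 36.2%, and with DGAT1i present 35.3% and 35.3%, of all genes tested rose and fell. Their medians were 0.01 and 0.12, against 0.01 and -0.01. Angptl4, a secreted inhibitor of lipoprotein lipase, fell most in both, with 77 reads over the M0 libraries and 2 over those of IFNγ + LPS (a ratio of 27.9, exact 95% counting interval 7.47 to 235), and a log2 fold change of -4.55 with DGAT1i present. Olr1, a receptor for oxidized lipoprotein, rose most, at 0.186 ± 0.161 CPM in M0 and 1.92 ± 0.215 CPM in IFNγ + LPS (log2 fold change of 3.24), and with 2 and 25 reads over the groups with DGAT1i (a ratio of 19.9, exact 95% counting interval 4.95 to 173). DGAT1i alone raised 7 of the 22 and lowered 1 in M0, and raised 13 and lowered 3 in IFNγ + LPS, where 11.0% and 13.4%, and 13.5% and 16.3%, of all genes tested rose and fell. The medians were 0.09 and 0.34 on the log2 scale, against 0.00 and -0.01 for all genes tested. In M0 the largest rise was that of Cat, the peroxisomal catalase (1.08, 264 ± 10.3 to 559 ± 10.7 CPM), and the only fall that of Lpl (-0.20). In IFNγ + LPS Fabp4, a fatty acid-binding protein, rose most (1.41, 8.15 ± 2.46 to 21.9 ± 1.36 CPM), and Nr1h3, which encodes the oxysterol receptor LXRα, fell most (-1.28, 132 ± 14.7 to 54.3 ± 5.73 CPM). Among the genes called, the largest differences between the responses were in Fabp3 (1.21) and Nr1h3 (-1.63). All comparisons with DGAT1i and with stimulation draw on the same 12 libraries and share groups, so the values stand side by side and are no independent repeats of each other.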

How the data were processed

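RNA of 12 samples of mouse macrophages, 3 per group, was sequenced and the authors deposited whole-number read counts per gene, without normalization, in 1 table. The submitters' processing notes name GRCm38 and DESeq2, while for the aligner, the counting program and the annotation release no name is given in the sources used here. The labels name a NEBNext kit and the study's methods a stranded TruSeq kit, so strand use in counting is uncertain. Of 47937 genes 25746 had 0 reads throughout, and symbols were taken from GENCODE M21 by gene identifier (47224 matched without the version suffix, and 713 have no symbol).

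From the deposited counts, edgeR 4.0.16 in R 4.3.3 kept 11760 genes (filterByExpr), scaled by TMM and fitted all 4 groups in 1 quasi-likelihood model, with Benjamini-Hochberg adjustment over all genes tested and a threshold of 0.05. CPM per kilobase used the union of GENCODE M21 exons. Promoter windows came from RefSeq (GRCm38.p6), and near-identical copies were sought with BLAST 2.17.0. The scripts were tested on simulated data.

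All 35 genes were described by role, with full statistics for those called in any comparison with a change of at least 1.5-fold and values or ranges for the others. Of each further list the gene with the largest called rise and the one with the largest called fall in each comparison were named, except 1 gene that is not reported here. The members and all lists were chosen with earlier results of these data known, so none is independent evidence. Alternatives were DESeq2 1.42.0, other scalings, no filter, other thresholds, the replicate number as a block and leaving out each library. Nothing in the labels says that replicates came from separate mice or cultures, so p-values measure the spread between these libraries, which may be technical. Between 4.28 and 7.58 reads stand behind 1 CPM, and intervals and floors cover counting error only.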

Additional observations from a re-analysis of the deposited data

Results flagged for a closer look

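The response to DGAT1i differed between IFNγ + LPS and M0 in 5 genes, by edgeR's test of the difference itself with adjustment over all genes tested. For Cpt1a the difference on the log2 scale was -0.67 (-0.666, adjusted p = 5.82e-09), and for Acsl1 it was -0.45 (-0.453, adjusted p = 0.000135). For Acadl it was 0.44 (0.439, adjusted p = 0.00204), for Acox3 0.32 (0.325, adjusted p = 0.00434) and for Decr1 0.48 (0.476, adjusted p = 0.0286). Decr1 lost the call without a filter on low counts (adjusted p = 0.101) and with DESeq2 (adjusted p = 0.105).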

How the results depend on the processing

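With scaling by library size alone, 6 of the 33 genes rose and 25 fell with IFNγ + LPS, against 10 and 16. The log2 fold change then turned in Cpt2 (-0.27), Acadl (-0.017), Acadvl (-0.43), Echs1 (-0.17), Eci2 (-0.46), Acox3 (-0.13), Acsl4 (-0.45) and Acsl5 (-0.17), and with DGAT1i present in Cpt1a (-0.028), Cpt2 (-0.29), Acadvl (-0.41), Echs1 (-0.34), Acsl4 (-0.15) and Acsl5 (-0.22). By its construction this scaling moves all genes together, and the medians of all genes were -0.46 and -0.43. Over all genes it called 2340 higher and 7002 lower against 4361 and 4254, and with DGAT1i present 2333 and 6799 against 4152 and 4151.

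The 4 falls with DGAT1i in M0 were 1 without a filter and 1 with DESeq2, and with only the library described as T863, chosen after seeing the data, there was 1 rise and 0 falls. With 1 library in that group the spread comes from the other groups, and fewer samples alone can end calls, so this says nothing on the stability of the falls. For the filter and the tool the cause was not tested. Without a filter, 1142 of 22191 genes were called higher and 1387 lower with DGAT1i in M0. Over all genes DESeq2 called 750 higher and 1201 lower there against 1298 and 1571, the single library gave 616 and 1045, and for the difference of responses 819 and 601 against 1019 and 1152. At an adjusted p under 0.1 the difference was lower in 4 of the 33 genes rather than 2, and over all genes in 1532 rather than 1152.

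Leaving out 1 library at a time gave 10 to 10 rises and 14 to 16 falls with IFNγ + LPS, 9 to 10 and 14 to 18 with DGAT1i present, 2 to 3 and 1 to 4 with DGAT1i in M0, 4 to 6 and 5 to 7 with DGAT1i in IFNγ + LPS, and 2 to 4 and 2 to 3 for the difference. Of 1980 such values 1916 kept direction and side of the threshold, 51 lost and 13 gained the call, and 0 reversed. Of 1378 other alternative values 1314 kept both, 30 lost, 20 gained and 14 reversed. Deviations from the group mean correlated at -0.0217 to 0.0687 between same-numbered libraries of other groups, and at -0.058 to 0.0381 between libraries of other numbers. The labels do not say whether a number marks a shared mouse or day, and correlations this small cannot decide it. With a replicate block the counts were 10 and 16, 10 and 17, 2 and 3, 7 and 6, and 4 and 2. At this depth, Acot1, Ppara and Pdk4 were too low for any further statement.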
